A study of Homo sapiens with 12 samples.

Results

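Transcript levels were compared between islet-like cells labelled NKX2-2 knockout and the wild type cells that the titles set beside them, in 6 of the 12 RNA-seq libraries of the series. Members were chosen by their titles: 3 libraries labelled knockout and 3 labelled wild type, numbered 1 to 3 in each group. Of 60624 genes in the count table, 17436 passed the expression filter and were tested. Both groups came from MEL1, an established human embryonic stem cell line, by way of expandable pancreatic progenitors kept on feeder cells in a medium with EGF, bFGF, 616452 and I-BET151. Both were taken at day 8 in the medium R6, which holds B27, BSA, zinc sulfate, heparin, 616452, T3, LDN-193189, Compound E, vitamin C and forskolin. The labels name no edited clone and no knockout design, so a difference between cell lines and an effect of the knockout cannot be told apart. Whether the libraries of a group stem from separate cultures is not stated. The p-values therefore reflect library-to-library spread, part or all of which may be technical.

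NKX2-2 is a homeodomain transcription factor of the NK2 family that islet cells, gut endocrine cells and the ventral neural tube share. It recruits Groucho (TLE) corepressors and is known mainly as a repressor, and in the mouse pancreas its loss removes most hormone-producing cells and leaves many cells with ghrelin. In the pancreas it acts downstream of or alongside PDX1, NEUROG3 and NEUROD1, and in the neural tube it is induced by Hedgehog signalling and sets the border between ventral neuron types.

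The knocked out gene was measured first. NKX2-2 (ENSG00000125820.6, chromosome 20, 21511010 to 21514026 on the minus strand of GRCh38 in GENCODE 29) stood at 91.9, 68 and 68.3 CPM (reads scaled to library size with TMM factors) in the libraries labelled knockout and at 95.4, 96.6 and 93.4 CPM in wild type. Its TPM, transcripts scaled for gene length and total, was 44.6, 30.6 and 28.6 against 60.8, 56.9 and 54.5. Every wild type library was above every knockout library, yet the knockout libraries kept most of the transcript and the difference did not pass in edgeR's quasi-likelihood test (log2 fold change -0.32 ± 0.12 (SE), adjusted p = 0.061). A lesion that stops the protein can leave its transcript, so this level does not check the label, and "knockout" below means the libraries labelled so. CLEC16A, the gene edited in the other experiment of the series, was at 26.6, 23.8 and 21 against 23.6, 26.3 and 19.1 CPM, with overlapping groups.

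The libraries held 16157481 to 20649976 counts. The first principal component, with 72.1% of the variance, separated the groups, and the second, with 11.5%, separated the libraries numbered 3 of both groups from the others. Genes of mitochondrial DNA took 9.13% to 10.2% of counts in the knockout and 7.05% to 8.02% in the wild type libraries. The labelled cell type was checked with 10 genes of islet endocrine cells, among them CHGA, SYP, INSM1 and NEUROD1, all of which passed the filter. Their summed level was 2025 to 2153 CPM in the knockout and 4225 to 4431 CPM in the wild type libraries. CHGA entered this sum at a mean of 163 CPM in the knockout and 480 CPM in the wild type libraries. Its counts per TPM were 23.9 times lower here than in the libraries of the CLEC16A experiment. The sum therefore holds fewer reads of CHGA than its TPM would imply. Its mean TPM was also lower in the knockout, at 1649 against 4215.

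Of the tested genes, 2888 were higher and 2936 lower in the knockout at an adjusted p under 0.05, which is 16.6% and 16.8% of them, or 33.4% together. At least 2-fold differences made up 1270 of the rises (7.28% of tested genes) and 964 of the falls (5.53%). The groups did not overlap in CPM for 7941 genes, 45.5% of those tested. Every count of list members below is to be read against these shares. Direction went with level: among genes over 100 CPM, 13.3% rose and 24.2% fell, while among genes of 1 to 5 CPM, 20.9% rose and 10.6% fell. Protein-coding genes were near even, with 17.3% higher and 19% lower. Of 733 tested lincRNA genes, 17.9% were higher and 7.64% lower. All tested genes had a median log2 fold change of 0.033.

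**Figure D1:**
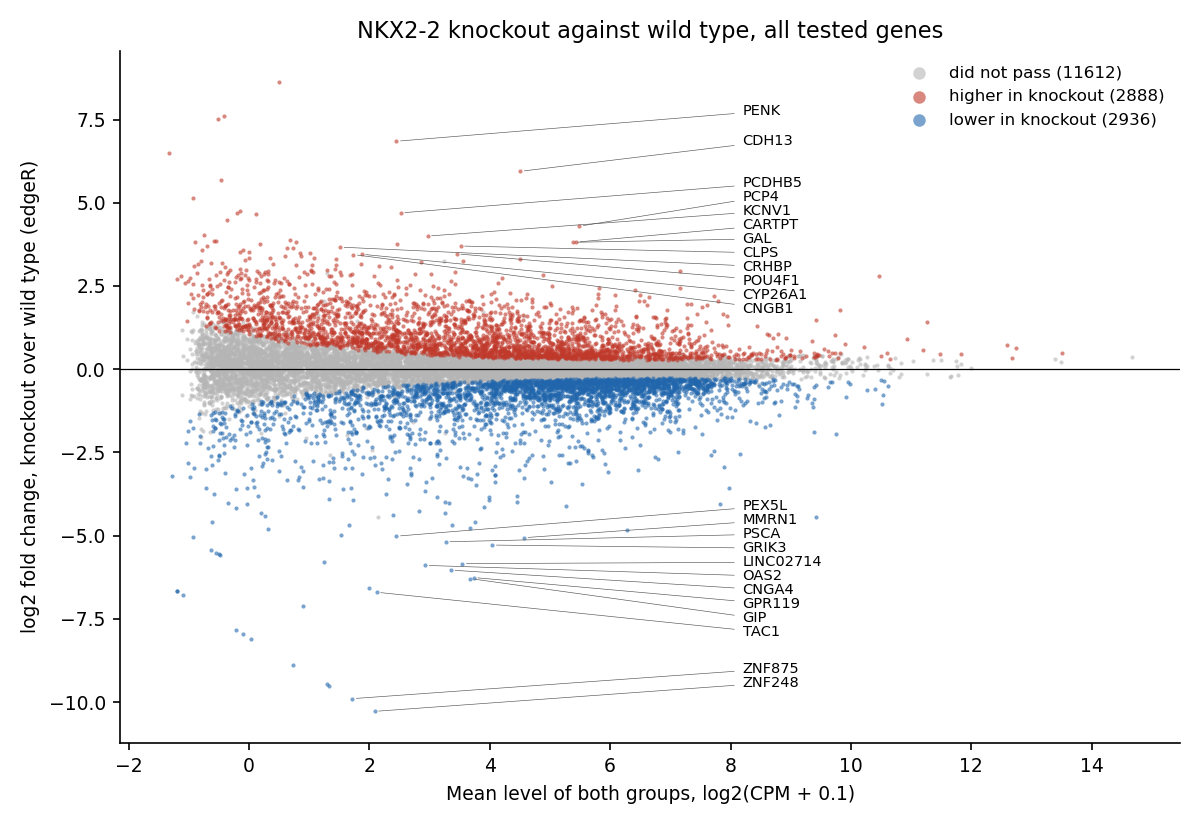
Each point is 1 of the 17436 tested genes, with its mean level over both groups on the horizontal axis, as log2(CPM + 0.1), and its log2 fold change on the vertical axis. The 12 largest rises and 12 largest falls that met the naming rule are labelled, and the 2888 higher and 2936 lower genes spread over the whole range of levels.

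The largest rises included neuropeptides, adhesion molecules and channels. By the naming rule (adjusted p under 0.05, a mean of 5 CPM or more in 1 group, no overlap of groups, the same direction in TPM), these were PENK, CDH13, PCDHB5, PCP4, KCNV1, CARTPT, GAL, CLPS, CRHBP, POU4F1, CYP26A1 and CNGB1, and their log2 fold changes ran from 3.44 to 6.85. PENK, the precursor of the enkephalin opioid peptides, stood at 9.75, 9 and 13.2 CPM in knockout and 0.0481, 0.202 and 0 CPM in wild type, from 570 against 5 reads, a ratio of 123 with an exact 95% counting interval of 52.5 to 381. CDH13, a cadherin held to the membrane by a lipid anchor, was at 48.3, 48.6 and 36.6 against 1.39, 0.202 and 0.508 CPM (log2 fold change 5.94 ± 0.33 (SE), adjusted p = 6.27e-08). GAL, the galanin precursor, was at 90.6, 66.2 and 77.2 against 5.19, 4.3 and 7.22 CPM (log2 fold change 3.81 ± 0.19 (SE), adjusted p = 1.85e-08). As the naming rule requires, the lowest knockout library was above the highest wild type library in all of these. POU4F1, a POU-domain factor of sensory neurons, stood at 22.9, 19.7 and 17.1 against 1.92, 2.12 and 1.3 CPM. CYP26A1, the enzyme that breaks down retinoic acid, stood at 4.94, 6 and 8.6 against 0.384, 0.404 and 1.02 CPM. CRHBP, which binds corticotropin-releasing hormone outside the cell, was at 4.7, 4.5 and 6.12 against 0.433, 0.253 and 0.508 CPM, and CLPS, the colipase of pancreatic juice, at 21.9, 18.1 and 23.1 against 0.961, 1.57 and 2.37 CPM. PCDHB5 has close paralogs in its gene cluster, so its reads are uncertain.

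The largest falls held 2 zinc finger genes, gut peptides and receptors. They were ZNF248, ZNF875, TAC1, GIP, GPR119, CNGA4, OAS2, LINC02714, GRIK3, PSCA, MMRN1 and PEX5L. ZNF248 and ZNF875 had 0 reads in every knockout library against 485 and 371 in wild type, and no other gene was at 0 in 1 group and at 5 CPM or more in the other. Against a floor of 3 counts per library, they were at least 49.5-fold and at least 38-fold lower. Their wild type levels were 8.79, 8.29 and 7.79 CPM and 6.01, 6.82 and 6.26 CPM. GPR119, a receptor for lipid amides on islet and gut endocrine cells, fell from 27.6, 25.8 and 24.7 CPM in wild type to 0.361, 0.3 and 0.346 CPM (log2 fold change -6.26 ± 0.20 (SE), adjusted p = 9.66e-10). GRIK3, a kainate-type glutamate receptor subunit, went from 33.8, 32.9 and 29.1 to 0.722, 1 and 0.692 CPM (log2 fold change -5.28 ± 0.18 (SE), adjusted p = 1.43e-09). MMRN1, a multimerin of platelets and endothelium, went from 48.1, 47 and 42.6 to 1.08, 1.65 and 1.33 CPM, and OAS2, an interferon-induced synthetase, from 14.1, 16.5 and 13.5 to 0.421, 0.2 and 0.115 CPM. For each of these 4 the groups were far apart relative to the spread within them. TAC1, the substance P precursor, had 4 reads in knockout and 489 in wild type, a ratio of 113 (exact 95% counting interval 43.9 to 417).

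By the difference in CPM, other genes led. BTBD17, whose role is little known, rose from 354, 302 and 409.7 CPM in wild type to 2655, 2268 and 2521 CPM in knockout (log2 fold change 2.80 ± 0.14 (SE), adjusted p = 2.00e-08). ALDH1A1, which makes retinoic acid, was at 2302, 2409.6 and 2942 against 1342, 1279 and 1501 CPM, and COL3A1, a fibrillar collagen, at 3384, 3828 and 3563 against 1433, 1313 and 1255 CPM. That the groups do not overlap in these 3 genes was a condition of their choice. Besides these the largest gains were EEF1A1 and 4 genes of mitochondrial DNA, MT-CO3, MT-RNR2, MT-ATP6 and MT-CYB, with log2 fold changes of 0.35 to 0.71. EEF1A1 (log2 fold change 0.49) lost its call without knockout library 2 or 3 or wild type library 1 or 2. It also lost it in the limma fit on TPM without a filter (adjusted p up to 0.125 over all alternatives). MT-ATP6 lost its call without wild type library 1 or 2 (up to 0.0675). MT-CYB lost its call in 10 alternatives (up to 0.242). Those were RLE scaling, no count filter, all 3 limma fits on TPM and omission of any 1 library other than wild type library 3. Among the largest losses were GCG, C3, SCG2, APOA1, FN1, MUC13 and GOLM1. C3, the central complement component, went from 1423, 1456 and 1215 to 427, 371 and 270.3 CPM, and MUC13, a mucin of gut epithelium, from 1784, 1897 and 1917 to 1129, 1083 and 1046 CPM. FN1, fibronectin, was at 869, 721 and 477 CPM in knockout and 1412, 1425 and 879 CPM in wild type, so its groups lay close, and it lost its call without wild type library 2 and in all 3 limma fits on TPM (adjusted p up to 0.161 over all alternatives).

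Start-site sequences are shown for 5 named genes because they are those with the core letters bound by NK2-type homeodomains in a promoter window that was searched. The letters TNAAGTG were searched on both strands of RefSeq windows of GRCh38.p14 that run from 250 bases before to 50 bases after each start. Of the 46 genes named for their size of change, as hormones or as edited genes, 28 had windows that were searched. These had 40 windows, since some genes have several starts, and 5 of the 28 held the letters, each in 1 window. The other named genes, PENK among them, were not searched, so whether they hold the letters is not known. For MMRN1, which has 2 starts, the window with the match is shown. In capitals is each match. CRHBP (chr5:76952795-76953094, plus strand) rose, GRIK3 (chr1:37034466-37034765, minus strand) and MMRN1 (chr4:89879261-89879560, plus strand) fell, SST (chr3:187670345-187670644, minus strand) rose and GHRL (chr3:10292898-10293197, minus strand) did not pass.
CRHBP: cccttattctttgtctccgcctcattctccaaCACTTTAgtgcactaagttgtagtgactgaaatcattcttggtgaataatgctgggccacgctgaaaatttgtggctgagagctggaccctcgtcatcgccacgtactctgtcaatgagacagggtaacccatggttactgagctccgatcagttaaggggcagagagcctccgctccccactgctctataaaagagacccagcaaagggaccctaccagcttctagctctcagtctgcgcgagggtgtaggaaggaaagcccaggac
GRIK3: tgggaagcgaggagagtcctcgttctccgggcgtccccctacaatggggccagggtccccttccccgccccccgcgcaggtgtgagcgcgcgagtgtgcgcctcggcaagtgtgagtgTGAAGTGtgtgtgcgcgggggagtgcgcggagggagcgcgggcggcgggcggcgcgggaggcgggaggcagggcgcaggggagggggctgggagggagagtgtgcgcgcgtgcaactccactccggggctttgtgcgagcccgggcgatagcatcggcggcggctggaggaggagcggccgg
MMRN1: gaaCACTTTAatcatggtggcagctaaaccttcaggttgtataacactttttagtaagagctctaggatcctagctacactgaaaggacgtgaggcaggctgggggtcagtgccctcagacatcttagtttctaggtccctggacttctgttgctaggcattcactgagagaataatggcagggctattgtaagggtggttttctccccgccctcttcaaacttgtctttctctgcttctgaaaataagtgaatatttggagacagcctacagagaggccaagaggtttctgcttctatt
SST: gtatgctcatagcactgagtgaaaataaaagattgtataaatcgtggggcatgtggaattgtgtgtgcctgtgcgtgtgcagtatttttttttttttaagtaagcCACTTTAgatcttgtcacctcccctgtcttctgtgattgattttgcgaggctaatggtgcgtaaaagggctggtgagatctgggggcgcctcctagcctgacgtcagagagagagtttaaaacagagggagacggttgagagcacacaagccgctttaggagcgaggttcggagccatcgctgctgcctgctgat
GHRL: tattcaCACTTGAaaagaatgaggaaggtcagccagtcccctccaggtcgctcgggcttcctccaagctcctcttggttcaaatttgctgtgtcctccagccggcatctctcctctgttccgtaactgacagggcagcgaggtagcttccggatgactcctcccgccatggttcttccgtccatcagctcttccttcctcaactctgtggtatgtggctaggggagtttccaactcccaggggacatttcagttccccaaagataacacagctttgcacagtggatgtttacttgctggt
The letters occurred in 10.2% of all 35116 windows and in 7.81% of the 17708 windows of 12162 tested genes. Among tested genes they were in 8.97% of the windows of higher genes, 7.25% of lower genes and 7.66% of genes that did not pass. The longer form TNAAGTGG, which contains the first, was in 2.78%, 2.07% and 2.1%. The shares lie close together, and a match here is a run of letters, not a binding site.

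Transcription factors of the islet fell more often than they rose. Of 41 tested of 44 listed, 7 rose, 23 fell and 11 did not pass, with a median log2 fold change of -0.76. MNX1, a homeodomain factor of early pancreas and beta cells, was at 42, 42.1 and 43.3 CPM in knockout and 237, 224 and 254 CPM in wild type (log2 fold change -2.49 ± 0.10 (SE), adjusted p = 4.62e-09). NKX6-1, which beta cells need and which shares progenitor domains with NKX2-2, was at 64.3, 51.3 and 46.6 against 198, 209.9 and 192 CPM (log2 fold change -1.89 ± 0.12 (SE), adjusted p = 1.87e-07). The same direction held for LMX1A (33, 26 and 30.4 against 206, 178 and 194 CPM) and FEV (74.1, 59.7 and 60.7 against 364, 330.4 and 373 CPM), factors of serotonin-producing cells, which in these libraries lay far apart between groups. IRX1 and IRX2, Iroquois factors of alpha cells that neighbour each other on chromosome 5, had log2 fold changes of -3.99 and -1.82, and ST18 one of -1.54. NEUROG3, the factor that starts endocrine differentiation, went the other way, from 9.08, 5.71 and 6.77 CPM in wild type to 58.5, 49.6 and 46.2 CPM in knockout (log2 fold change 2.83 ± 0.17 (SE), adjusted p = 8.16e-08). Of the 10 islet endocrine markers, whose sum is given above, 1 rose, 7 fell and 2 did not pass, and the 1 rise was not called without wild type library 1 or 2. In bulk samples fewer cells of a type and less RNA per cell cannot be told apart.

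Corepressors known to bind NKX2-2 were called at about the rate of all tested genes. Of 14 tested TLE proteins, histone deacetylases, DNA methyltransferases and partners, 1 rose, 3 fell and 10 did not pass, which is 28.6% called against 33.4% of all genes (2 rose without knockout library 1). TLE4 was at 73.6, 71.8 and 58.8 CPM in knockout and 20.1, 20 and 16.4 CPM in wild type (log2 fold change 1.85 ± 0.13 (SE), adjusted p = 3.39e-07). TLE3 was at 53.3, 41.1 and 33.8 against 124, 138 and 103 CPM (log2 fold change -1.51 ± 0.16 (SE), adjusted p = 1.04e-05), and TLE2 and TLE5 had log2 fold changes of -0.73 and -0.46. TLE4 thus stood above and the other 3 below their wild type levels, with no overlap of groups. Among neural patterning and neuronal factors, most were too low to test: of 42 listed, 13 were tested, of which 6 rose, 2 fell and 5 did not pass. IRX5 stood at 9.75, 9.35 and 9.06 against 1.54, 1.42 and 1.41 CPM and GATA3 at 6.92, 6.5 and 5.25 against 1.92, 1.72 and 1.24 CPM, both higher. PHOX2A, a factor of autonomic neurons, was lower, at 3.67, 3.2 and 4.27 against 17.1, 17.2 and 17.6 CPM.

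Peptide precursors split into rises and falls. Of 35 tested of 43 listed, 9 rose, 12 fell and 14 did not pass, with a median of -0.035 that turned to 0.026 with upper-quartile scaling. GCG, the glucagon precursor, was at 46, 65.9 and 71.1 CPM in knockout and 1241, 1220.2 and 1476 CPM in wild type (log2 fold change -4.43 ± 0.17 (SE), adjusted p = 4.02e-09). PYY, a peptide of gut L cells and the islet, was at 3.85, 3.9 and 4.73 against 67, 67.5 and 83.1 CPM (log2 fold change -4.12 ± 0.15 (SE), adjusted p = 2.25e-09), and GIP, the incretin of gut K cells, at 0.0602, 0.6 and 0.231 against 22.8, 23.5 and 29 CPM. INS was at 232, 228 and 283 against 539.7, 575 and 827 CPM (log2 fold change -1.39 ± 0.16 (SE), adjusted p = 2.06e-05) and PPY at 0.241, 0.9 and 0.865 against 3.51, 3.74 and 5.87 CPM. In these 5 genes every knockout library was below every wild type library. PTHLH, the parathyroid hormone-related peptide, fell as well, with a log2 fold change of -3.19. SST, the somatostatin of delta cells, was higher, at 119.8, 103 and 112 against 20, 21.5 and 30.8 CPM (log2 fold change 2.21 ± 0.15 (SE), adjusted p = 2.77e-07). CRH, the corticotropin-releasing hormone, rose from 33.4, 35.7 and 40.9 to 170.2, 149 and 171 CPM (log2 fold change 2.16 ± 0.11 (SE), adjusted p = 3.22e-08). Together with PENK, GAL and CARTPT (64.4, 71.6 and 105 against 4.71, 4.45 and 8.07 CPM), it belongs to the precursors that were higher in every knockout library. GHRL, the ghrelin precursor, did not pass (log2 fold change -0.29 ± 0.15, adjusted p = 0.149), and its groups overlapped, at 12.3, 11.4 and 14 against 13, 15.4 and 17.8 CPM.

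**Figure D2:**
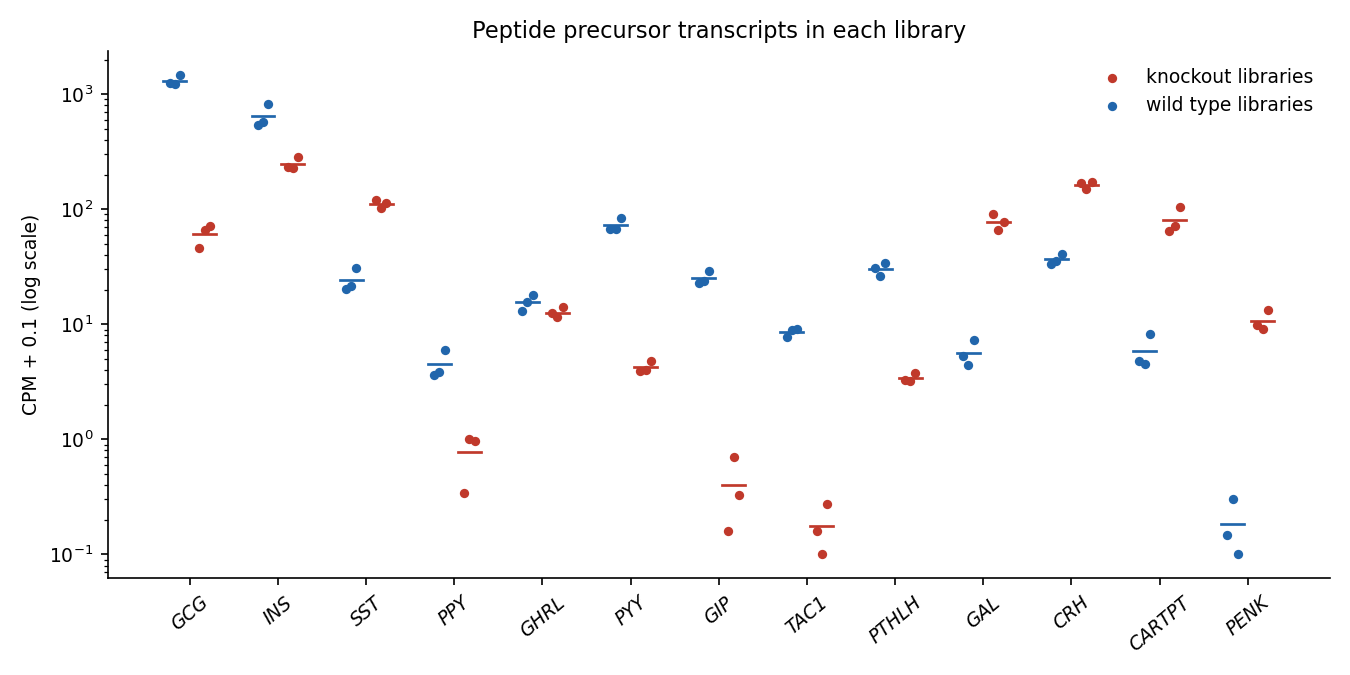
Dots give the level of 13 peptide precursors in each library, as CPM + 0.1 on a log axis, with wild type libraries on the left and knockout libraries on the right of each gene, and bars give the group means. The groups overlap for GHRL alone among these 13, and GCG spans from 46 to 71.1 CPM in knockout against 1220.2 to 1476 CPM in wild type.

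Enzymes that mature these precursors did not move as 1 set. Of 12 tested of 13 listed, 2 rose, 7 fell and 3 did not pass, and without wild type library 3 4 rose. PCSK1, the convertase that cuts proinsulin and makes GLP-1 from proglucagon, was at 27.1, 26 and 24.5 CPM in knockout and 455, 427 and 402 CPM in wild type (log2 fold change -4.05 ± 0.11 (SE), adjusted p = 3.01e-10). PCSK2, which makes glucagon, was at 179, 165 and 137 against 324, 326 and 270.2 CPM (log2 fold change -0.94 ± 0.12 (SE), adjusted p = 6.02e-05), with no overlap of groups, and FURIN fell by 0.65 on the log2 scale. PAM, which amidates peptide ends, was higher, at 506, 522 and 544 against 247, 260.4 and 255 CPM (log2 fold change 1.04 ± 0.098 (SE), adjusted p = 3.69e-06). Of 68 tested synaptotagmin, SNARE and RAB3 genes of vesicle release, 8 rose, 18 fell and 42 did not pass. The rises numbered 5 without knockout library 2 or 3, 3 without wild type library 2 and 4 without wild type library 3. SYT13, an atypical synaptotagmin of endocrine precursors, was at 45, 39.5 and 33.2 against 498, 474 and 418 CPM (log2 fold change -3.56 ± 0.14 (SE), adjusted p = 3.10e-09). SYT7, a calcium sensor of insulin release, and RAB3C had log2 fold changes of -1.81 and -1.76. SYT4, by contrast, stood at 316, 371 and 422 against 123, 118 and 121 CPM and was higher.

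Receptors for peptides, amines and nutrients were lower more often than higher. Of 33 tested of 42 listed, 6 rose, 15 fell and 12 did not pass, with a median of -0.39. ADRA2A, the adrenergic receptor that restrains insulin release, was at 8.49, 8.4 and 6.17 CPM in knockout and 88.9, 86.4 and 77.5 CPM in wild type (log2 fold change -3.45 ± 0.14 (SE), adjusted p = 5.07e-09). FFAR1, a fatty acid receptor of beta cells, was at 1.08, 0.95 and 1.33 against 14.9, 16.8 and 16.8 CPM, and SSTR1, a somatostatin receptor, at 33.2, 29.6 and 26.3 against 193, 186 and 173 CPM. These 3 and GPR119 were lower in all 3 knockout libraries, while 6 receptors of the list rose. Of 56 tested adhesion and orphan receptors, 14 rose, 16 fell and 26 did not pass, with ADGRG4 at -3.39 and GPR37 at 1.68 (log2 fold changes).

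The serotonin enzyme and the monoamine transporters of vesicles fell, and 3 genes of cholinergic cells rose. Of 19 tested genes of transmitter synthesis and transport, 6 rose, 10 fell and 3 did not pass. TPH1, the first enzyme of serotonin synthesis, was at 64.5, 55.1 and 55.3 CPM in knockout and 371, 368 and 313 CPM in wild type (log2 fold change -2.59 ± 0.12 (SE), adjusted p = 9.16e-09). The vesicular monoamine transporters moved with it: SLC18A1 was at 16.3, 15.7 and 14.3 against 76.1, 74.2 and 79.4 CPM and SLC18A2 at 4.27, 5.2 and 5.42 against 31.6, 32.4 and 28.5 CPM. SLC18A3, which loads acetylcholine into vesicles, was at 20.5, 21.3 and 21.2 against 2.31, 1.67 and 2.71 CPM (log2 fold change 3.24 ± 0.17 (SE), adjusted p = 3.83e-08). The gene that encloses SLC18A3, CHAT, makes acetylcholine and rose from 0.961, 0.607 and 0.452 to 4.27, 5.25 and 5.19 CPM, and SLC5A7, the choline transporter, rose from 26.8, 26.9 and 19.6 to 53.2, 62.2 and 51.8 CPM, and both were chosen after their values were seen. Reads of CHAT and SLC18A3 may not be separable where they overlap, since the use of strand in counting is not given in the sources used here. Across all 298 tested solute carriers, 51 rose, 87 fell and 160 did not pass.

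Ion channels and transmitter receptors changed in both directions. Among 70 tested genes of potassium channels, 18 rose, 24 fell and 28 did not pass. KCNV1 and KCNN2 rose (log2 fold changes 4.00 and 3.09), and KCNJ3 and KCNS3 fell (-2.34 and -3.26). The 22 tested genes of calcium channels split alike (6 rose, 7 fell and 9 did not pass), with CACNA1B, the N-type channel, at 5.66, 3.9 and 4.21 against 26, 27.3 and 18.3 CPM and CACNG6 at 13.2, 13.3 and 13.4 against 2.74, 3.18 and 3.61 CPM. CACNA1B was thus lower and CACNG6 higher in every knockout library. For sodium channels, 11 genes were tested (3 rose, 3 fell and 5 did not pass, with 1 lower without wild type library 1), with SCN3A at -1.06 on the log2 scale. Of 20 tested glutamate receptor genes, 7 rose, 5 fell and 8 did not pass, with GRIA2 at 1.06. Of 10 tested of 26 listed GABA and glycine receptor genes, 6 rose, 2 fell and 2 did not pass, and the median was 1.75. GABBR2, of the metabotropic receptor, was lower, at 10.8, 8.7 and 7.39 CPM in knockout and 27, 26.7 and 21.6 CPM in wild type (log2 fold change -1.49 ± 0.16 (SE), adjusted p = 9.97e-06). With log2(TPM + 1), where 4 of these receptor genes were left, their median turned to -0.34.

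Adhesion molecules of synapses were mostly higher. Of 31 tested of 33 listed, 17 rose, 5 fell and 9 did not pass, with a median of 0.63. CADM1 stood at 122, 126 and 128 CPM in knockout and 54.4, 53.5 and 49.4 CPM in wild type (log2 fold change 1.26 ± 0.097 (SE), adjusted p = 7.08e-07), and CADM2 at 59.4, 58.6 and 50.8 against 22.9, 22.5 and 18.9 CPM. LRRTM1, a partner of neurexins, rose as well, while CNTNAP5, a contactin-associated protein, fell (log2 fold changes 1.20 and -2.83). Of 48 tested cadherins and non-clustered protocadherins, 17 rose, 13 fell and 18 did not pass, with CDH9, PCDH18 and CDH18 at 1.86, 1.61 and 1.24. Of 29 tested clustered protocadherins, which share long exons, 6 rose, 3 fell and 20 did not pass, and PCDHGB5 stood at -2.77. Among axon guidance genes, 9 rose, 7 fell and 14 did not pass of 30 tested semaphorins, plexins and neuropilins, and without knockout library 2 4 fell. SEMA3C was at 154, 195 and 183 against 70.9, 61.2 and 55.9 CPM, and SEMA3A and its receptors NRP1 and NRP2 had log2 fold changes of 1.22, 1.15 and 1.08, all higher. Of 22 tested ephrins and Eph receptors, 8 rose, 7 fell and 7 did not pass, with EPHA4 at 1.51 and its ligand EFNA1 at -1.72. Of 18 tested slits, netrins and their receptors, 6 rose, 3 fell and 9 did not pass, with UNC5A at 2.32 and NTNG2 at -2.23. Of 10 neuron markers, all tested, 4 rose, 1 fell and 5 did not pass, and their summed level was 952 to 1072 CPM in the knockout and 747 to 807 CPM in the wild type libraries. NEFL, a neurofilament, was at 115, 116 and 127 against 45.5, 44.9 and 49.2 CPM, and ELAVL4, an RNA-binding protein of neurons, at 4.64, 6 and 5.6 against 0.769, 0.556 and 0.96 CPM. The part of this marker level in the adhesion and channel differences was not tested.

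HOX genes, which give cells their position along the body axis, were higher apart from HOXA7 among those tested. Of 39 listed, 18 passed the filter, and 17 rose, 0 fell and 1 did not pass, against 16.6% higher among all tested genes. HOXB9 stood at 40.8, 44 and 39.8 CPM in knockout and 10.2, 10.6 and 9.65 CPM in wild type (log2 fold change 2.03 ± 0.12 (SE), adjusted p = 5.85e-08). HOXB8 was at 42.6, 44.6 and 38.8 against 10.5, 8.34 and 10.2 CPM (log2 fold change 2.12 ± 0.13 (SE), adjusted p = 9.91e-08). HOXB6 and HOXB4 had log2 fold changes of 1.78 and 1.83, and HOXA7 was the gene that did not pass. HOXC9 lost its call with DESeq2, without a count filter, in 1 fit of 12 libraries, in a limma fit without a filter and on leaving out any 1 library other than knockout library 3 (adjusted p up to 0.281). The tested genes of the HOXB cluster, HOXB2 to HOXB9, were all higher by at least 2-fold (lowest log2 fold change 1.37, of HOXB3), with no overlap of groups. Their antisense transcripts lie in the same cluster, so some of these reads may belong to those.

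Hedgehog signalling runs from the ligands SHH and IHH through the receptor PTCH1 and SMO to the GLI factors, and GLI1, PTCH1 and HHIP are its targets. Of 13 tested of 14 listed genes, 11 rose, 1 fell and 1 did not pass, with a median of 1.00. GLI1 stood at 12.4, 11.3 and 13.4 CPM in knockout and 3.41, 3.39 and 2.6 CPM in wild type (log2 fold change 1.97 ± 0.17 (SE), adjusted p = 1.90e-06), and HHIP, which binds the ligands, at 23.8, 24.1 and 24.6 against 9.9, 8.04 and 7.34 CPM (log2 fold change 1.52 ± 0.14 (SE), adjusted p = 2.62e-06). GAS1, a co-receptor, was at 92.6, 112 and 108 against 31.2, 29.6 and 30.9 CPM. In these 3 genes the knockout libraries were at least 2 times any wild type library. PTCH1, given after its values were seen, was called but its groups overlapped, at 74.8, 74.4 and 55.9 against 60.2, 50.9 and 39.6 CPM (log2 fold change 0.44 ± 0.16 (SE), adjusted p = 0.0453). It lost its call without knockout library 1 or 2, wild type library 2 or 3 or mitochondrial DNA genes, with RLE scaling and in all 3 limma fits (adjusted p up to 0.319). The ligands went apart: IHH fell from 118, 125 and 134 to 69.5, 58.1 and 52.2 CPM, and SHH, chosen after its values were seen, rose from 30.8, 31.3 and 31.6 to 68.1, 56 and 51.9 CPM.

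Retinoic acid is made by ALDH1A enzymes, carried by CRABP proteins and broken down by CYP26 enzymes. Of 16 tested of 19 listed genes, 9 rose, 5 fell and 2 did not pass. RBP4, the retinol carrier of blood, was at 152, 145 and 149.6 CPM in knockout and 33.1, 27.8 and 34 CPM in wild type (log2 fold change 2.23 ± 0.11 (SE), adjusted p = 1.95e-08), and STRA6, its receptor, at 73.3, 67.5 and 68.7 against 26, 25.6 and 27.6 CPM. CRABP1 and CRABP2 stood at 88, 83.6 and 105 against 20, 17 and 20.6 CPM and at 37.7, 37.1 and 48.5 against 12.9, 13.9 and 12.2 CPM. Carrier, receptor and binding proteins were thus higher, as were ALDH1A1 and CYP26A1, while 5 genes of the list fell. Those were ALDH1A2, RDH10, CYP26B1, RXRA and RARA, at log2 fold changes of -0.95, -0.93, -0.64, -0.64 and -0.35. CYP26B1, at 26.7, 27.3 and 21.1 against 41.5, 43.1 and 32.2 CPM, stood above CYP26A1 in every library. Enzymes that make retinoic acid and enzymes that break it down thus each went both ways. WNT ligands, frizzled receptors and their modulators counted 30 tested genes, of which 15 rose, 8 fell and 7 did not pass. RSPO3 and WNT2B, secreted activators, rose by 2.06 and 1.59 on the log2 scale, and FZD1 and WNT9A fell by 1.21 and 1.29. Of 25 tested FGF genes, 8 rose, 8 fell and 9 did not pass, with FGF12, FGF20 and FGF7 at 2.14, 2.40 and 1.86 and FGFR3 at -1.15.

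**Figure D3:**
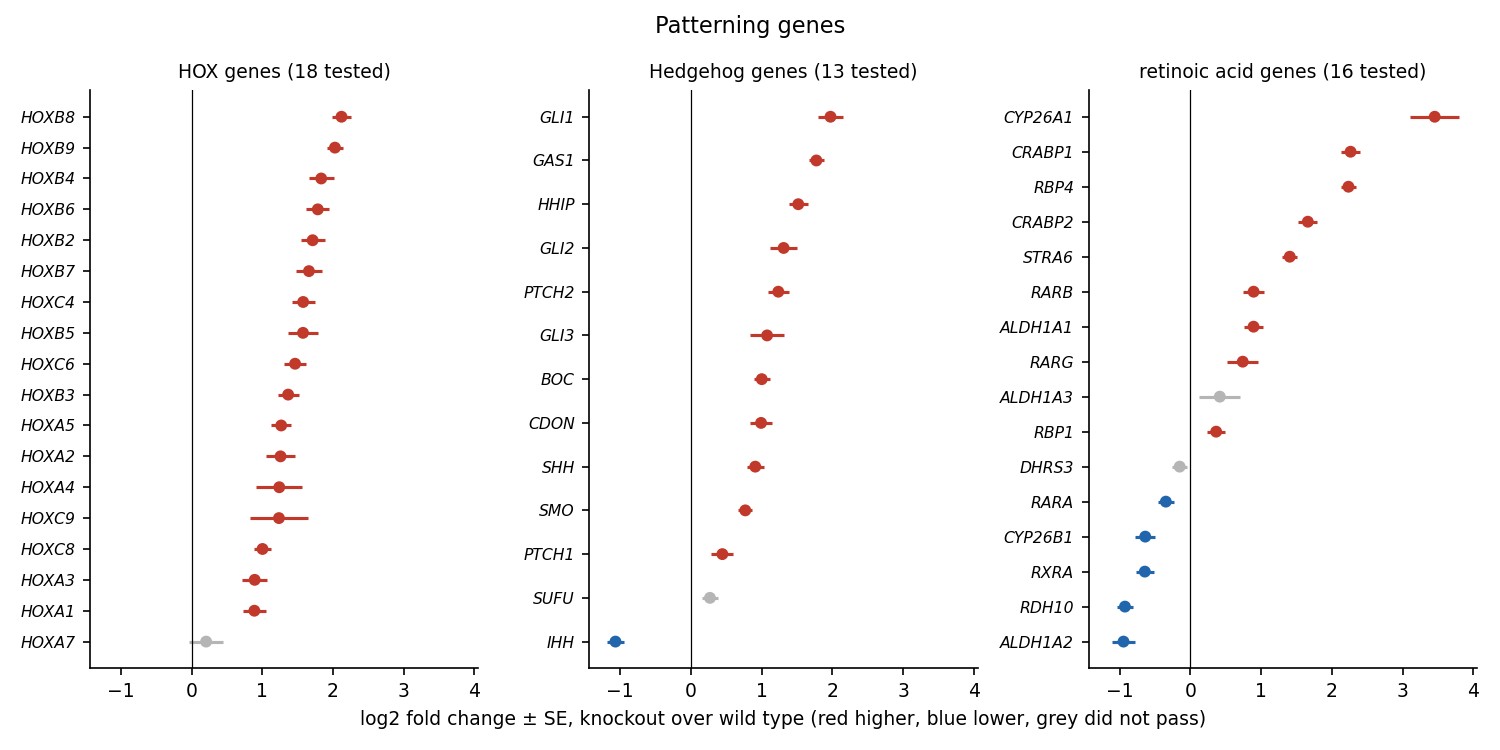
Points give the log2 fold change of each tested HOX gene (18), Hedgehog gene (13) and retinoic acid gene (16), and lines its SE. Red marks genes higher in knockout, blue those lower and grey those that did not pass. HOXA7 is the single grey HOX gene, and IHH the single blue Hedgehog gene.

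Other families of transcription factors were mixed. Of 34 tested nuclear receptors, 8 rose, 15 fell and 11 did not pass, with NR2F1, NR5A1 and NR2F2 at 1.54, 1.81 and 0.99 and NR0B2 at -1.03. The rises of nuclear receptors numbered 4 without knockout library 2 and 5 without wild type library 1 or 2. NR5A1, the steroidogenic factor of adrenal and gonad, stood at 21, 21.7 and 24.3 against 7.16, 5.76 and 6.1 CPM. Of 29 tested FOX genes, 10 rose, 7 fell and 12 did not pass, with FOXP2, FOXC1 and FOXO6 at 1.82, 1.45 and 1.32, and without knockout library 2 4 fell. Of 13 tested SOX genes, 5 rose, 1 fell and 7 did not pass, with SOX9, a progenitor and duct factor, at 64.8, 52.8 and 37.3 against 103, 103 and 74.5 CPM and SOX18 at 1.33 on the log2 scale. SOX9 was lower in all knockout libraries. Of 416 tested zinc finger genes named ZNF, 54 rose, 36 fell and 326 did not pass, with ZNF703 and ZNF710 at -1.41 and -1.12. That is 21.6% called against 33.4% of all tested genes, a description and not a test, and 33 rose without wild type library 1.

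Collagens and markers of mesenchyme were mostly higher, while laminins and integrins were mixed. Of 39 tested of 44 listed collagens, 25 rose, 6 fell and 8 did not pass, with a median of 0.95. COL14A1 was at 293, 339.9 and 299 CPM in knockout and 89.3, 82.2 and 74.4 CPM in wild type (log2 fold change 1.92 ± 0.11 (SE), adjusted p = 5.80e-08), and COL6A2 at 331, 348 and 386 against 111, 109 and 118 CPM. COL5A3 went the other way, at 15.5, 16.5 and 15.1 against 78, 91.7 and 81.6 CPM (log2 fold change -2.41 ± 0.12 (SE), adjusted p = 1.75e-08). Of 34 tested laminins and integrins, 9 rose, 6 fell and 19 did not pass, with LAMA4, ITGA9, ITGA11 and ITGA8 at 1.54, 1.94, 1.74 and 2.05. Of 9 mesenchyme markers, 3 of them collagens, 8 rose, 0 fell and 1 did not pass. PDGFRA was at 37.7, 43.9 and 41.8 against 4.52, 4.2 and 3.73 CPM (log2 fold change 3.31 ± 0.14 (SE), adjusted p = 4.93e-09), and LUM and DCN, small proteoglycans, at 1.97 and 2.06 on the log2 scale. The summed mesenchyme level was 6916 to 7918 CPM in the knockout and 2658 to 2979 CPM in the wild type libraries. It was higher in the same libraries as most of the collagens and the Hedgehog and HOX genes, and its part in those differences was not tested.

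Markers of other cell types were checked in the same libraries, and in short lists 1 library could move a count. Of 7 tested endothelial markers, 5 rose, 1 fell and 1 did not pass (0 fell when any 1 library was left out). Their sum was 70.5 to 78.5 CPM in the knockout and 23.4 to 28.7 CPM in the wild type libraries. CLDN5 made up most of the knockout sum, at 59.2, 48.8 and 59.1 against 13.9, 13.6 and 20.4 CPM. Of 5 tested muscle markers, 3 rose, 1 fell and 1 did not pass, with 0 lower without knockout library 2 (DES 1.42, ACTC1 1.95, MYOG 3.59, log2 fold changes), with a sum of 82.2 to 89 CPM in the knockout and 51.6 to 60.2 CPM in the wild type libraries. Of 8 tested enterocyte markers, 1 rose, 5 fell and 2 did not pass. SI, the sucrase-isomaltase of the brush border, was higher, at 205, 278 and 257 against 74.3, 55.8 and 58.6 CPM, while VIL1, CDX2 and APOA4 were lower, at -0.98, -0.78 and -0.83. Of 8 hepatocyte markers, 2 rose, 3 fell and 3 did not pass, with ALB at 486, 580.1 and 588 against 302, 263 and 299 CPM and APOA1 at 1023, 875 and 991 against 1865, 1850.0 and 2224 CPM. ALB was thus higher and APOA1 lower in every knockout library. The sums were 1619 to 1633 CPM in the knockout and 2317 to 2466 CPM in the wild type libraries for enterocytes, and 10026 to 12333 CPM in the knockout and 10002 to 11553 CPM in the wild type libraries for hepatocytes. Of 7 duct markers, 2 rose, 3 fell and 2 did not pass (1 rose without knockout library 1 or wild type library 1 or 2), with SPP1 at 2.73 and a sum of 677 to 741 CPM in the knockout and 719.8 to 816 CPM in the wild type libraries. Of 4 tested of 8 acinar markers, 2 rose, 0 fell and 2 did not pass (CLPS and CPA1 higher), and their sum was 44.6 to 53.1 CPM in the knockout and 21.2 to 25.9 CPM in the wild type libraries. Of 5 tested pluripotency markers, 3 rose, 0 fell and 2 did not pass (PRDM14, SOX2 and LIN28A higher, LIN28A not without knockout library 2 or wild type library 2, adjusted p up to 0.088), with a sum of 33.7 to 41.5 CPM in the knockout and 24.5 to 27.8 CPM in the wild type libraries. Of 4 tested neural crest and Schwann cell markers, 1 rose, 2 fell and 1 did not pass (0 rose without knockout library 1 or 3 or wild type library 1 or 3, and 1 fell when any library but knockout library 1 was left out), with a sum of 78.4 to 105 CPM in the knockout and 149 to 197 CPM in the wild type libraries, nearly all of it ERBB3. Of 8 macrophage and blood markers 2 were tested, of which CD14 rose, and the sum was 2.9 to 4.15 CPM in the knockout and 1.77 to 2.21 CPM in the wild type libraries. Of 10 tested keratins, 5 rose, 1 fell and 4 did not pass (3 rose without wild type library 1, and 0 fell without knockout library 2 or wild type library 2), and of 15 tested claudins, 3 rose, 6 fell and 6 did not pass, with KRT17 at 1.68, CLDN4 at -1.41 and CLDN11 at 1.24. Of 24 tested motile cilia genes, 2 rose, 6 fell and 16 did not pass (1 rose without wild type library 2 or 3), with HYDIN at -1.10 and DNAH11 at 0.80.

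How many genes of housekeeping complexes were called turned on single libraries. Of 77 tested nuclear genes of the respiratory chain, 2 rose, 0 fell and 75 did not pass. Of 34 tested proteasome genes, 0 rose, 1 fell and 33 did not pass. Of 76 tested genes of the cytosolic ribosome, 10 rose, 0 fell and 66 did not pass, with a median of 0.33. Without knockout library 1, 2 or 3, 34, 2 and 4 ribosomal genes rose, and without wild type library 1, 2 or 3, 1, 1 and 42. For the respiratory chain these counts were 11, 0 and 1 and 0, 0 and 14. Of proteasome genes, 4 rose and 2 fell without knockout library 1, 2 rose and 2 fell without wild type library 3, and 0 fell without knockout library 2 or wild type library 1 or 2. RPL39L, a testis and stem cell paralog of a ribosomal protein, stood at 3.49, 3.2 and 3.69 against 0.577, 0.253 and 0.452 CPM, while RPL22, RPS4X and RPL26 were at 0.50, 0.50 and 0.50. Ribosomal protein genes have many processed copies, so their reads are uncertain, and RPL22, RPS4X and RPL26 lost their calls without wild type library 1 or 2, and RPL22 and RPL26 also without knockout library 2 (adjusted p up to 0.221 over all alternatives). Where a list had a count of 0 in a direction (lower HOX, mesenchyme, acinar, pluripotency, macrophage, ribosomal and respiratory chain genes, higher proteasome genes), edgeR at an unadjusted p under 0.05 and DESeq2 also gave 0 there. In the other direction, ribosomal, respiratory chain and proteasome genes numbered 33, 7 and 2 at an unadjusted p under 0.05, and 12, 2 and 2 with DESeq2.

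**Figure D4:**
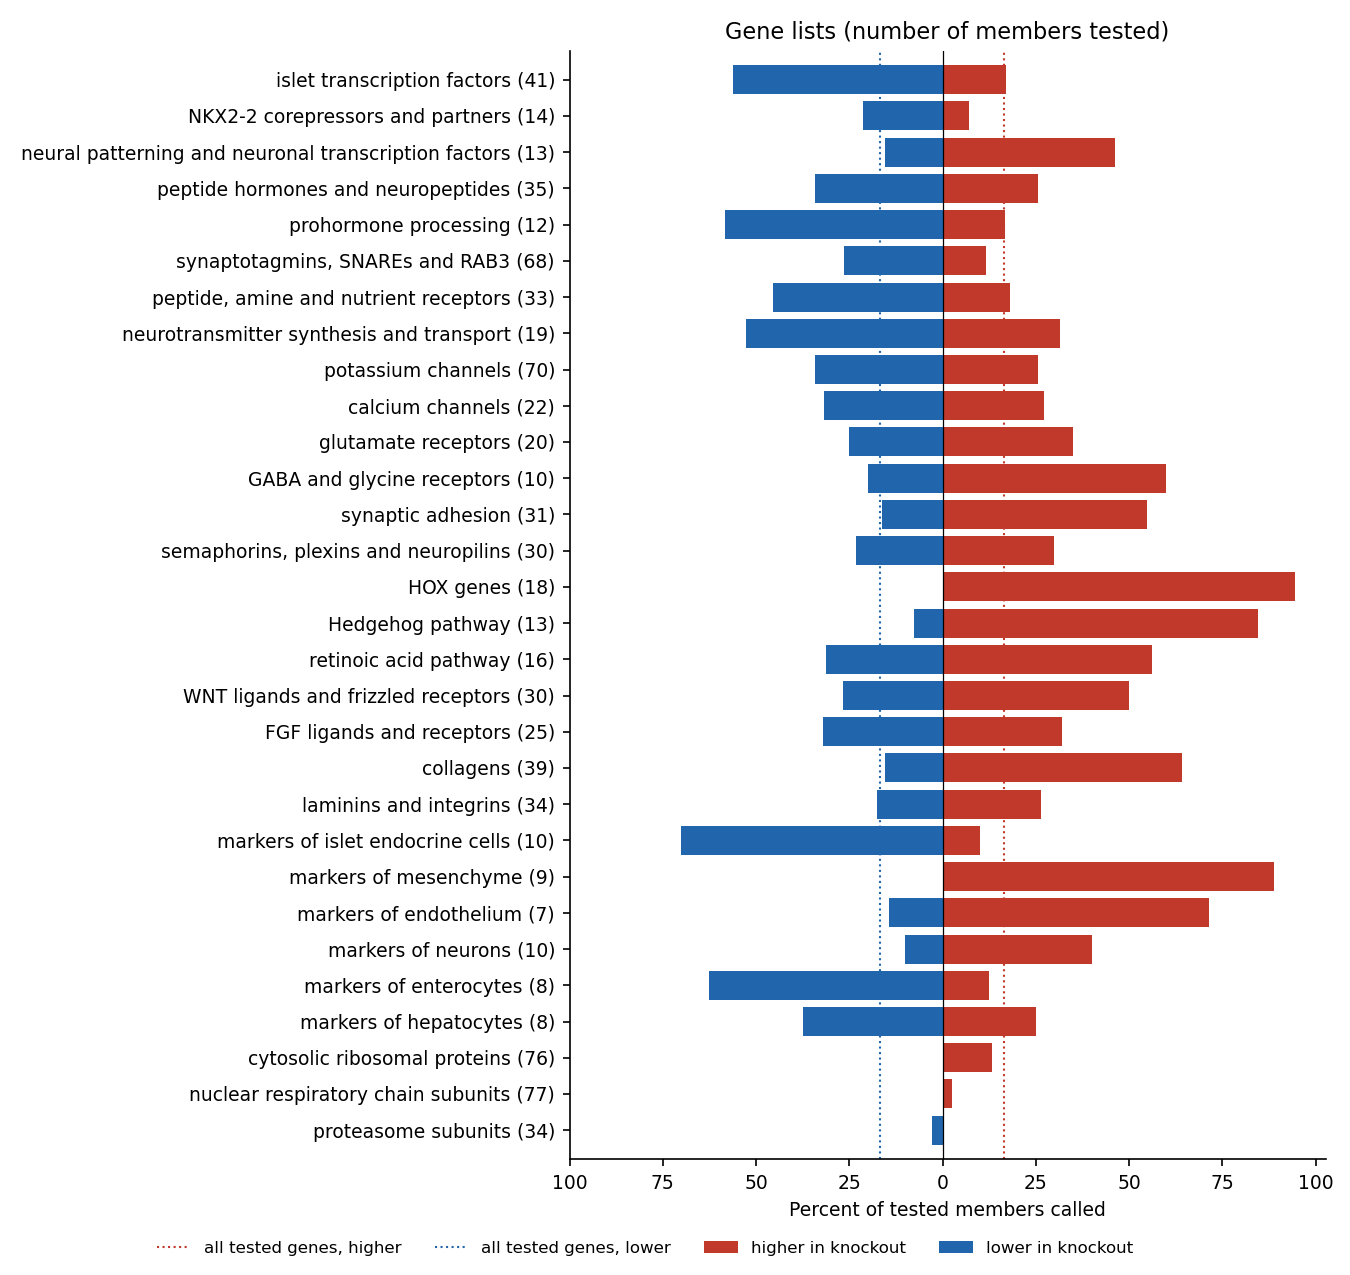
Bars give the percent of tested members of 30 gene lists that were higher (to the right) or lower (to the left) in knockout, with the number tested after each name, and dotted lines mark the shares of all tested genes, 16.6% and 16.8%. HOX, mesenchyme and Hedgehog genes lie farthest to the right, and islet endocrine markers farthest to the left.

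Some genes carried far fewer reads in this count table than their TPM would imply. A gene was called short where its counts per TPM were at least 4 times lower here than in the CLEC16A tables, among genes that averaged 2 TPM or more in each experiment and 200 counts or more in 1 of them. This held for 210 of 11060 genes, or 1.9%. Just inside the threshold lay PUF60 (4.02 times lower), and just outside it ABCC6 (3.99 times lower). Of the short genes, 125 had too few counts to be tested and 19 had 0 counts in all 6 libraries, while 2 were called higher and 14 lower. Among those with highest TPM were CHGA, RPS18, AC243919.1, CDKN1C and AC008038.1. RPS18, a ribosomal protein, had a mean TPM of 215 here with a mean of 2 counts, against 2406 TPM with 23467 counts in the CLEC16A libraries. CHGA, chromogranin A of dense-core granules, had 23.9 times fewer counts per TPM here. Its counts still fell, at 152, 155 and 181 CPM in knockout against 435, 557 and 448 CPM in wild type, and its TPM was 1809, 1488 and 1650.0 against 4062, 4169.7 and 4414, so the direction was the same in both tables. CDKN1C did not pass, with overlapping groups. Of the short genes, 55 (26.2%) lay between 28 and 34 Mb of chromosome 6, the major histocompatibility region, where 73 of all compared genes lay. An overlap with another annotated gene was found for 73.3% of the short and 68.4% of all compared genes. Short genes differed more between the tables: the median gap between the count and TPM log2 ratios was 0.374 for 85 tested short genes and 0.0278 for 10848 others, and it was over 1 for 21 and 7 of them. Apart from short genes, 5794 of 5808 called genes had the same sign in TPM. Tested genes below the limits of the comparison were not checked for a shortfall and count here as not short. ST6GALNAC6, a sialyltransferase chosen after its values were seen, is among the exceptions, with 0.241, 0.2 and 0.288 against 1.73, 1.21 and 2.71 CPM but 18.5, 19 and 19 against 13.1, 17.4 and 18.9 TPM.

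**Figure D5:**
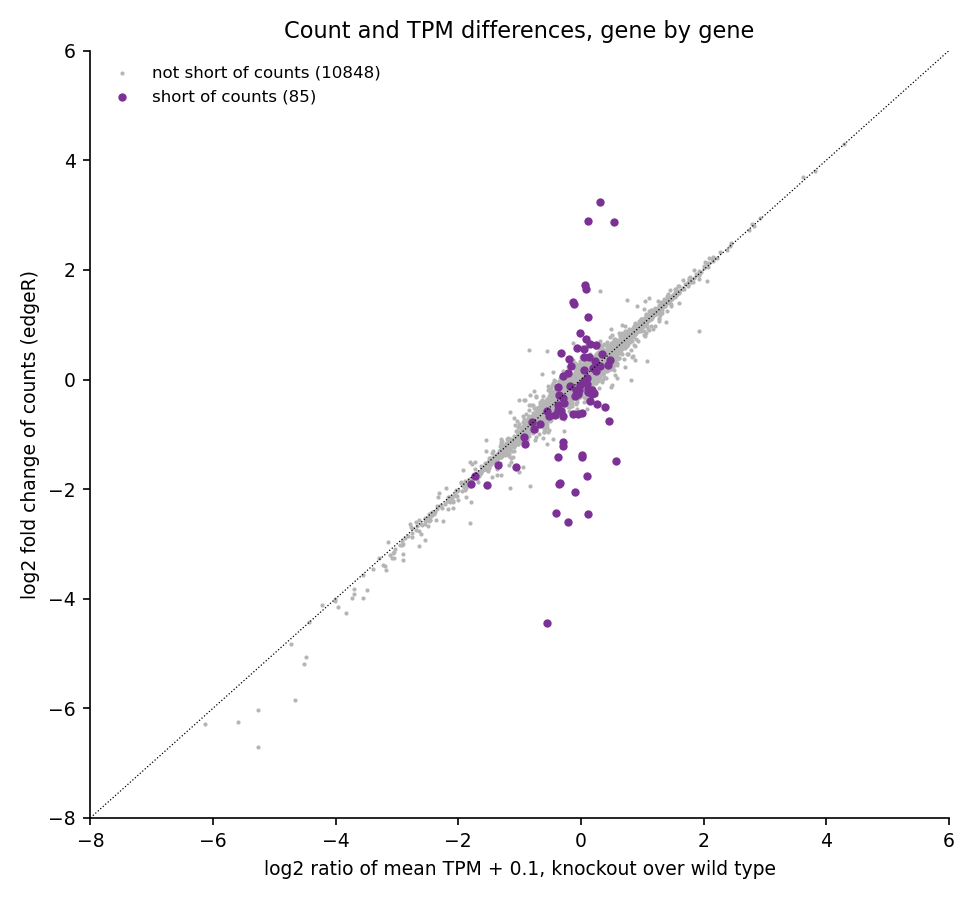
Each point is a tested gene that was compared between tables, with the log2 ratio of its mean TPM + 0.1 on the horizontal and the edgeR log2 fold change of its counts on the vertical axis. Grey genes follow the dotted line of equal change, while the 85 genes short of counts (purple) scatter above and below it near a TPM ratio of 0.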

How the data were processed

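Counts per Ensembl gene and TPM were deposited by the authors, and fastp 0.22.0, HISAT2 2.2.1, StringTie 2.1.7 and hg38 are given per the submitters' processing notes. The sources used here do not name the counting program, annotation release or strand setting. In each library the deposited TPM sum to 41.5% to 47.2% of what a complete TPM table holds. The pseudoautosomal Y rows (45) were dropped. Counts (16157481 to 20649976 per library) were tested with edgeR 4.0.16 in R 4.3.3 (TMM, filterByExpr, robust quasi-likelihood F test, Benjamini-Hochberg over all 17436 genes, threshold 0.05, groups of 3). SE was taken from the fold change and its F (|log2 fold change|/√F). Errors after ± are SE where so marked. Intervals and floors cover counting error only. The test was also run on simulated counts drawn with the spread that edgeR fitted. That run cannot show how the test behaves where these data depart from its model. Positions and gene types come from GENCODE 29 by Ensembl ID (99.1% of tested genes matched).

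Named genes are the edited genes, the 12 largest log2 changes and 8 largest CPM changes in each direction under the conditions given above, the 4 members of a list with the smallest p (8 for islet factors and for peptides), 5 hormones, genes at 0 in 1 group, and the 6 short genes with highest TPM. Not every gene the rule names is given in the text. A few genes are marked as chosen after their values were seen. The members and the 50 lists were chosen with earlier results of these data known, so no list count is independent support. Alternatives were RLE and upper-quartile scaling, DESeq2 1.42.0, other filters, a replicate block, 1 fit of 12 libraries, limma 3.58.1 on log2 of TPM with a pseudocount of 1 or 0.1, and omission of libraries, mitochondrial DNA genes or short genes.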

Additional observations from a re-analysis of the deposited data

How the results depend on the processing

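Counts of genes higher and lower stayed within 1.5 times their values with RLE scaling, upper-quartile scaling, DESeq2, other count filters, 1 fit of 12 libraries, and without mitochondrial DNA genes, short genes or both libraries numbered 3 (2883 higher and 3102 lower). Leaving out 1 library gave 2121 to 3032 higher and 2177 to 3300 lower genes, of which 1200 to 1273 and 903 to 1106 by at least 2-fold. With limma on log2(TPM + 1), 2-fold rises numbered 391 and 2-fold falls 452, and on log2(TPM + 0.1) there were 661 such rises. Without a filter on TPM, 1624 were higher and 1623 lower, 395 and 465 of them by at least 2-fold. A pseudocount shrinks the fold of low genes by construction, and the cause of the other shifts was not tested. The count of short genes was 124 with a TPM of at least 5. The replicate numbers do not pair the samples by the labels, and same-numbered libraries did not all deviate together (correlations 0.109, 0.0254 and 0.321). Knockout libraries 1 and 2 correlated best with wild type library 2 and 1, and library 3 with its own number. With the replicate number as a block, 4077 genes were higher and 3960 lower. Of 266 named genes tested, 226 kept their direction and side of the threshold under all 19 alternatives in which they could be tested, and among the others 1 reversed: ST6GALNAC6, at -2.92 on counts, was at 0.20 on log2(TPM + 1) with and without a filter and at 0.21 on log2(TPM + 0.1). NKX2-2 passed with DESeq2, without a filter, with the block, in 1 fit of 12 libraries, in all 3 limma fits and without knockout library 1, and did not pass otherwise (adjusted p 0.00192 to 0.235).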

Other observations

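Some genes that lie side by side changed together. Among 14561 tested protein-coding genes in order of position (GENCODE 29, GRCh38), 35 stretches of at least 3 consecutive genes were called at least 2-fold the same way, 17 higher and 18 lower, and they hold 114 of 1871 such genes. The way of looking, and the stretches given here, were chosen after the values were seen, and no test was made. The longest covers SKAP1 and HOXB2 to HOXB9 (chromosome 17, 48133440 to 48633572), and another the HOXC genes HOXC4, HOXC6, HOXC8 and HOXC9 (chromosome 12, 53990624 to 54056030), all higher, though HOXC9 lost its call in 9 alternatives (adjusted p up to 0.281). DUOX2, DUOXA2, DUOXA1 and DUOX1, which encode the dual oxidases that make hydrogen peroxide at epithelial surfaces and their maturation factors, were all lower (chromosome 15, 45092650 to 45165576). DUOX2 stood at 1.5, 0.65 and 0.577 CPM in knockout and 24.5, 30.6 and 18 CPM in wild type (log2 fold change -4.76 ± 0.30 (SE), adjusted p = 1.15e-07). CHRNA5, CHRNA3 and CHRNB4, nicotinic receptor subunits, were lower (chromosome 15, 78565520 to 78727754), and CHRNA3 was at 17.6, 14.7 and 13.8 against 90.3, 79.9 and 80.7 CPM. CHRM2, a muscarinic receptor of another chromosome, was higher, at 9.99, 13 and 12.3 against 2.26, 1.21 and 1.35 CPM.

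Antiviral and epithelial neighbours fell. OAS1, OAS3 and OAS2, interferon-induced and near-identical in parts, had log2 fold changes of -1.35, -2.82 and -5.89 (chromosome 12, 112906777 to 113011723). CEACAM7, CEACAM5 and CEACAM6, adhesion molecules of gut epithelium whose reads may be shared between paralogs, had -4.26, -2.76 and -2.14 (chromosome 19, 41673307 to 41772208). HCAR1, the lactate receptor, was at 0.421, 0.25 and 0.231 against 4.28, 4.6 and 4.68 CPM, with its paralogs HCAR2 and HCAR3 beside it also lower. HCAR2 lost its call without knockout library 2 or 3 or wild type library 2 or 3, without both libraries numbered 3 and in a limma fit without a filter (adjusted p up to 0.129). MYH14, a non-muscle myosin, had 0 reads in knockout and 4.23, 5.91 and 4.4 CPM in wild type, at least 28.9-fold lower against a floor of 3 counts per library. Of genes at 0 in 1 group and at 1 CPM or more in the other, 9 were at 0 in knockout, 1 of them short of counts, and 3 at 0 in wild type.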
